A study of Mus musculus with 8 samples.

Results

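The Polycomb complex genes described here are 10 genes, Suz12, Ezh2, Ezh1, Eed, Jarid2, Ring1, Rnf2, Bmi1, Cbx7 and Kdm2b, taken by name from the 21951 protein-coding genes of the GENCODE M21 annotation of mm10. For each gene, peaks of all 8 ChIP-seq lists were collected in a promoter window, from 5 kb upstream to 1 kb downstream of any annotated transcript start, and in the remainder of the gene body. E14Tg2a, a line of mouse embryonic stem cells, was used at passage 37 to 40, and its chromatin came from cells either kept pluripotent (ESCs) in leukemia inhibitory factor (LIF) or grown as a monolayer free of LIF and exposed to 1 µM retinoic acid (RA) for 48 h to give neuronal cells (NCs). Antibodies against FGFR1, RXR and Nur77 were used in both states, and an antibody against the histone variant H3.3 was used in RA only. FGFR1 in RA had 2 libraries, here replicates 1 and 2, and each other group had 1 library made from pooled plates of 1 cell line. Replicate 2 is the only library titled as experiment 2, and the paper describes it as an additional experiment. Differences between replicates 1 and 2 cannot be told apart from differences between experiments. The libraries are named below by factor and medium. FGFR1 is a fibroblast growth factor receptor that also enters the nucleus, RXR is the partner receptor of the retinoid and many other nuclear receptors, and Nur77 is an orphan nuclear receptor. Peak lists hold no RNA levels, and expression of the members was not analysed here.

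Polycomb proteins keep developmental genes silent in embryonic stem cells. Polycomb repressive complex 2 (PRC2) methylates histone H3 through its catalytic subunit Ezh2 or Ezh1, which needs Suz12 and Eed for activity, and Jarid2 is an accessory subunit that helps to bring PRC2 to its targets. PRC1 ubiquitylates histone H2A through Ring1 or Rnf2, which pairs with a PCGF protein such as Bmi1. Canonical PRC1 reads the PRC2 mark through a CBX protein such as Cbx7, whereas a variant PRC1 is brought to unmethylated CpG islands by Kdm2b.

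FGFR1 had a promoter-window peak at 10 of 10 members in both RA libraries and at 5 of 10 in LIF, while RXR had one at 10 of 10 in LIF and at 2 of 10 in RA. Nur77 had one at 5 of 10 in each state, with 4 of these genes in common. Of all protein-coding genes, 19.7% had an FGFR1 peak in LIF, and 56.0% and 51.5% in the RA libraries. The shares in LIF and RA were 46.4% and 26.2% for RXR, and 29.8% and 31.0% for Nur77. In all, 82 promoter-window peaks fell in 30 sites, a site being a set of overlapping peaks, of which 11 were seen in 1 library and 7 in 4 or more. Of the 82 summits, 75 lay within 1 kb of a start of the member itself. Ezh1 and Kdm2b were the members with a peak in all 8 libraries. A peak list holds no value for a gene without a peak, so an absence is described below by the number of fragments that a peak would have needed.

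**Figure D1:**
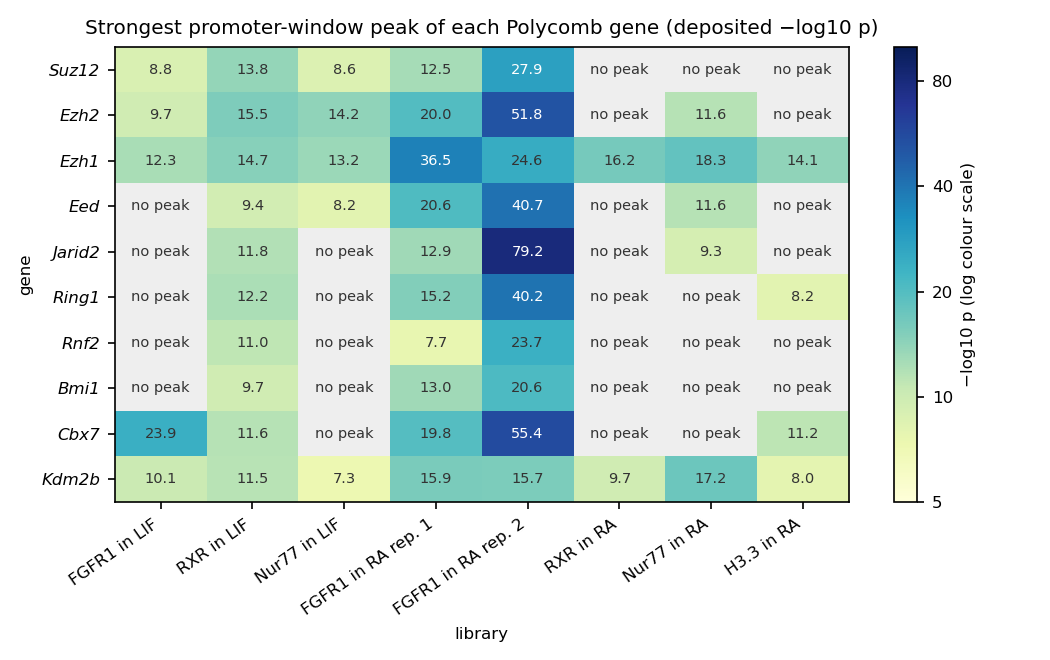
Strongest promoter-window peak of each member (rows) in each library (columns), with the deposited −log10 p printed in the cell and shaded on a log scale, and grey where the list holds no peak. The columns of RXR in LIF and of both FGFR1 libraries in RA are full, the RXR column in RA holds values for Ezh1 and Kdm2b alone, and the highest value is 79.2 for Jarid2 in FGFR1 replicate 2.

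Facts of the whole lists touch every count below. The lists held 10634 to 46137 peaks, and depth, inferred from the deposited values as a genome-wide background, ran from 1.27 fragments per kb in H3.3 to 7.09 in RXR in LIF. At that background the fewest fragments that could make a peak were 4 to 8. FGFR1 replicate 2 stood apart in peak width, with a median of 311 bp against 89 to 140 bp in the other libraries, and in the fragments behind a median peak, 27 against 9 to 12. Members also had more annotated starts than most genes, with a median of 9 against 3, and so larger windows, with a median of 16.5 kb against 8.81 kb for all protein-coding genes. A larger window can catch more peaks, and the part of window size in the counts was not tested.

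4 stretches of DNA are printed here because the results below turn on them. All are mm10, plus strand, 5′ to 3′, and were chosen to lie outside annotated untranslated exons. The Suz12 stretch at chr11:79992545-79992683 holds the summits of 4 libraries upstream of the gene, with capitals for a CACGTG word and an AGGTCA word. The Eed stretch at chr7:89981198-89981310 holds the summits of 3 libraries upstream of the gene, which is on the minus strand, with capitals for the 10 bases covered by the word GCATGCGC on both strands. In the Ezh1 stretch at chr11:101226464-101226532, which begins 1 base upstream of this minus-strand gene, capitals span the summits of 6 libraries. In the Jarid2 stretch at chr13:44869566-44869659, inside an intron, capitals span the summits of 7 libraries.
Suz12 upstream: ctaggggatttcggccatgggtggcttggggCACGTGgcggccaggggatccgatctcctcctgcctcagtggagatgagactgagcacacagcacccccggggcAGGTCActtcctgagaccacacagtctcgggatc
Eed upstream: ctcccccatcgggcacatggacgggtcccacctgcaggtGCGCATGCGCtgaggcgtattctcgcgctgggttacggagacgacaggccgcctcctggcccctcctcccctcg
Ezh1 start: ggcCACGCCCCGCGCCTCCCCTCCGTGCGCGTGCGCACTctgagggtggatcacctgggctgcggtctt
Jarid2 intron: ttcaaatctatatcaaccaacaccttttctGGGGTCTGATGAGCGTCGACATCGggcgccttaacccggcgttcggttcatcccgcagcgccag

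Among the PRC2 core genes, Suz12 (chr11:79993106-80034123, plus strand), which encodes the subunit that holds the complex together, had promoter-window peaks in 5 libraries and none of RXR, Nur77 or H3.3 in RA. At the upstream site the summits lay 517 to 130 bp before a start. The fold is the fragment pileup at the summit over the local background, with a pseudocount added to both. The pseudocount lowers the fold more where the background is low. The fold was 6.17 for FGFR1 in LIF. Its −log10 p was 8.79, and it rested on 8 fragments (95% exact Poisson interval 3.45 to 15.8). In RA the fold there was 7.20 in FGFR1 replicate 1 and 9.51 in replicate 2, with −log10 p of 11.1 and 27.9. The mean in RA was 8.35 ± 1.64 (SD, n = 2), and the LIF fold lay below both RA libraries. The local background was 0.458 under the 8 fragments in LIF. It was 0.668 under 11 fragments in replicate 1 and 3.00 under 37 in replicate 2. The order of the states thus depends on the pseudocount. RXR in LIF had folds of 8.04 on 15 fragments and 6.53 on 12 at separate summits, and the Nur77 folds in LIF were 5.40 and 6.04 at separate summits within the site. A further site 165 to 176 bp inside the gene, in an untranslated exon, had a fold of 7.90 in FGFR1 replicate 1 and 6.15 in RXR in LIF. The FGFR1 summit in LIF had the printed CACGTG word within the 100 bp around it, and those of RXR in LIF, Nur77 in LIF and FGFR1 replicate 1 had the AGGTCA word.

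The study tested the Suz12 promoter by ChIP-PCR, with a primer pair that can be placed beside these peaks. The pair amplified chr11:79992380-79992622, a product of 243 bp.
forward primer: cgcatcgtgttgagaagccac
reverse primer: catctccactgaggcagga
The product overlapped peaks of 5 libraries and held 1 summit, that of FGFR1 in LIF. The other summits of the site lay on the side of the product nearer to the gene.

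Ezh2 (chr6:47530139-47595341, minus strand), the main methyltransferase of PRC2 in dividing cells, had 8 peaks of 6 libraries in 1 site at its start, with summits from 139 bp upstream to 96 bp downstream of a start. FGFR1 had a fold of 6.65 in LIF on 9 fragments. In RA it had folds of 11.0 and 9.81 at 2 summits of replicate 1, and 12.9 on 62 fragments in replicate 2. The deposited FGFR1 fold was thus higher in both RA libraries than in LIF at this gene. Local backgrounds were 0.504 in LIF, 0.733 in replicate 1 and 3.89 in replicate 2. For replicate 2 the order against LIF depends on the pseudocount. For RXR in LIF the fold was 9.06 with a −log10 p of 15.5, the highest of RXR in LIF among the promoter-window peaks of the members, and no RXR peak was listed in RA. Nur77 had a fold of 8.68 in LIF and of 6.88 and 7.57 at 2 summits in RA.

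Ezh1 (chr11:101191115-101226463, minus strand), the other methyltransferase of PRC2, had 1 site at its start that all 8 libraries shared, with every summit within 39 bp upstream of a start. This was the only one of the 30 promoter-window sites with 8 libraries. FGFR1 showed a fold of 7.92 in LIF on 11 fragments, while replicate 1 in RA showed 17.5 on 28 and replicate 2 showed 9.89 on 30. The fold in replicate 1 was the highest of all promoter-window peaks of the members, and the RA libraries differed from each other by more than replicate 2 differed from LIF. RXR had a fold of 6.25 in LIF and 9.78 in RA, and Nur77 had 8.15 in LIF and 10.5 in RA. H3.3 had a fold of 8.81 with a −log10 p of 14.1, the highest of H3.3 among the members. A neighbouring site, 220 to 260 bp inside the gene, had peaks of RXR in LIF, FGFR1 replicate 1 and Nur77 in RA, with folds of 8.09, 9.07 and 8.02. A lone Nur77 peak in RA at an internal start had a fold of 6.97 and overlapped an alternating dinucleotide tract of 23 bp.

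Eed (chr7:89954654-89980983, minus strand), which encodes the subunit that binds the methyl mark, had no FGFR1 peak in LIF and FGFR1 peaks in both RA libraries. At the upstream site printed above, 287 to 255 bp before a start, FGFR1 had a fold of 11.5 on 17 fragments in replicate 1 and 6.54 on 34 fragments in replicate 2, and Nur77 in RA had a fold of 7.57. All 3 summits had the word GCATGCGC within the 100 bp around them. The site nearer to the gene had folds of 6.23 for RXR in LIF, 5.83 for Nur77 in LIF, 6.23 for Nur77 in RA and 10.4 for FGFR1 replicate 2. The summit of replicate 2 there lay 83 bp from the start of the non-coding gene E230029C05Rik and farther from an Eed start, and peaks of the 2 genes cannot be told apart at this distance.

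The accessory gene Jarid2 (chr13:44729474-44921643, plus strand) had 6 promoter-window peaks in 4 sites, and 16 peaks outside the window, more than any other member. The peak of FGFR1 replicate 2 near an internal start, at chr13:44731209-44731470, had a fold of 15.1 on 91 fragments (95% interval 73.3 to 112) and a −log10 p of 79.2, the highest of all member peaks. Replicate 1 had no peak there and instead had folds of 5.13 and 7.75 at 2 other sites. Jarid2 was thus the 1 member whose FGFR1 promoter-window peaks in the RA libraries did not coincide. RXR in LIF had folds of 6.59 at the site of replicate 2 and 5.71 nearer to the first start, and Nur77 in RA had a fold of 6.29 there.

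The Jarid2 intron site printed above held a peak of every library other than H3.3, with summits spread over 23 bp. It lay 28813 to 28836 bp downstream of the nearest Jarid2 start. The FGFR1 fold was 16.0 in LIF, and in RA it was 10.8 for replicate 1 and 9.58 for replicate 2. RXR had 17.2 in LIF and 11.4 in RA, and Nur77 had 12.4 in LIF and 8.14 in RA. For each of the 3 factors the LIF fold was the higher one. For FGFR1 the difference in fold from LIF was larger than that between the RA libraries. RXR rested on 27 fragments over a local background of 0.628 in LIF and on 13 over 0.233 in RA. FGFR1 rested on 26 over 0.688 in LIF and on 13 over 0.300 in replicate 1. For these pairs the order depends on the pseudocount in the fold, and for Nur77 and FGFR1 replicate 2 it does not. A search of the same assembly with 149 bp of this site found 18 other copies on the chromosomes, 76.2% to 98.9% identical over 78 to 151 bp. Peaks were listed at 3 of the 18 copies, at 1 of them in 5 or more libraries. Assemblies leave out most tandem repeats such as the ribosomal RNA genes, so copies there, if any, are not counted. The authors discarded reads that mapped to several places, and the part of the other copies in these values was not tested.

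The PRC1 ligase gene Ring1 (chr17:34020792-34024680, minus strand) had 4 libraries at 1 site 23 to 68 bp inside the gene. The folds were 7.27 in FGFR1 replicate 1, 4.23 in replicate 2, 5.70 in RXR in LIF and 5.60 in H3.3, on 21, 31, 21 and 10 fragments. FGFR1 in LIF had none. Further upstream, FGFR1 replicate 1 had a fold of 4.73 at 3048 bp and replicate 2 a fold of 7.26 at 3369 bp from the Ring1 start. Both summits lay within 3 bp of a start of the neighbouring gene H2-Ke6, so they sat nearer to that gene than to Ring1. The strongest Ring1 value of replicate 2, a −log10 p of 40.2, belonged to that neighbouring position.

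Rnf2 (chr1:151458004-151500955, minus strand), which encodes the main PRC1 ligase of embryonic stem cells, had 1 promoter-window site with 3 libraries, 14 to 109 bp inside the gene. FGFR1 had folds of 5.57 on 8 fragments in replicate 1 and 9.43 on 30 fragments in replicate 2, and RXR in LIF had 6.81 on 13. The peak of replicate 1 overlapped an alternating tract of 20 bp and was the weakest of the best member peaks in that library. A site in an Rnf2 intron, 3558 bp from a start in FGFR1 replicate 1, had a higher fold than the promoter, 16.6 in that library and 9.16 in Nur77 in RA. Its summits were nearer to the start of the gene model Gm36527.

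Bmi1 (chr2:18677018-18686629, plus strand), a PCGF subunit of PRC1, had the same libraries as Rnf2. Its shared site lay 4572 to 4895 bp upstream, at the start of the neighbouring gene Commd3, with folds of 8.11 and 7.04 at 2 summits of FGFR1 replicate 1, 8.39 in replicate 2 and 6.56 in RXR in LIF. At the Bmi1 start itself there was 1 peak, 3 bp inside the gene, with a fold of 8.01 on 13 fragments in FGFR1 replicate 1. Without peaks that were nearer to another gene, Bmi1 thus had a peak in replicate 1 alone. The peak of replicate 1 at the Commd3 position held both CACGTG and AGGTCA within 100 bp of the summit.

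Cbx7 (chr15:79915807-79971119, minus strand), a reader of the PRC2 mark, had an FGFR1 site at its start in all 3 FGFR1 libraries and in no other. The fold was 12.1 on 22 fragments in LIF, and in RA it was 11.1 on 17 for replicate 1 and 14.4 on 62 for replicate 2. The LIF value lay between the RA libraries, whose mean was 12.8 ± 2.30 (SD, n = 2), and with a −log10 p of 23.9 it was the highest of FGFR1 in LIF among the promoter-window peaks of the members. At an internal start RXR in LIF had a fold of 6.43, in a peak on an alternating tract of 24 bp, and FGFR1 replicate 2 had 5.02 on 20 fragments. The H3.3 peak lay apart from all others, 1307 bp upstream, with a fold of 7.25 on 8 fragments and with CACGTG and GCATGCGC around its summit.

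Kdm2b (chr5:122870665-122989823, minus strand), the CpG-binding demethylase that recruits variant PRC1, had 20 promoter-window peaks in 9 sites spread over 19 annotated starts and a window of 51.5 kb, the largest of the members. All 8 libraries had a peak, though at no single site. At chr5:122900171-122900440, in an untranslated exon, folds were 9.49 in FGFR1 replicate 1, 7.85 in replicate 2, 6.61 in RXR in RA, 10.0 in Nur77 in RA and 6.29 in RXR in LIF. FGFR1 in LIF had its peak elsewhere, with a fold of 6.80 on 10 fragments and a summit 624 bp inside a shorter transcript, beside an RXR peak in LIF with a fold of 6.62. No FGFR1 peak in RA overlapped it, though replicate 1 had a separate peak next to it with a fold of 5.07, at chr5:122880216-122880342. At chr5:122888390-122888720, around another internal start, folds were 8.40 in FGFR1 replicate 1, 5.98 in RXR in RA and 5.32 at both Nur77 summits in LIF. The H3.3 peak there, on 6 fragments, had a fold of 5.59 and a summit 7 bp from that start. Near a start farther upstream, FGFR1 replicate 1 and Nur77 in RA shared a pair of sites, with folds of 8.77 and 6.10 at the one and 8.28 and 7.36 at the other. Peaks of a single library were left at 3 sites, with folds of 7.16 and 7.32 in FGFR1 replicate 1 and 5.39 in RXR in LIF.

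**Figure D2:**
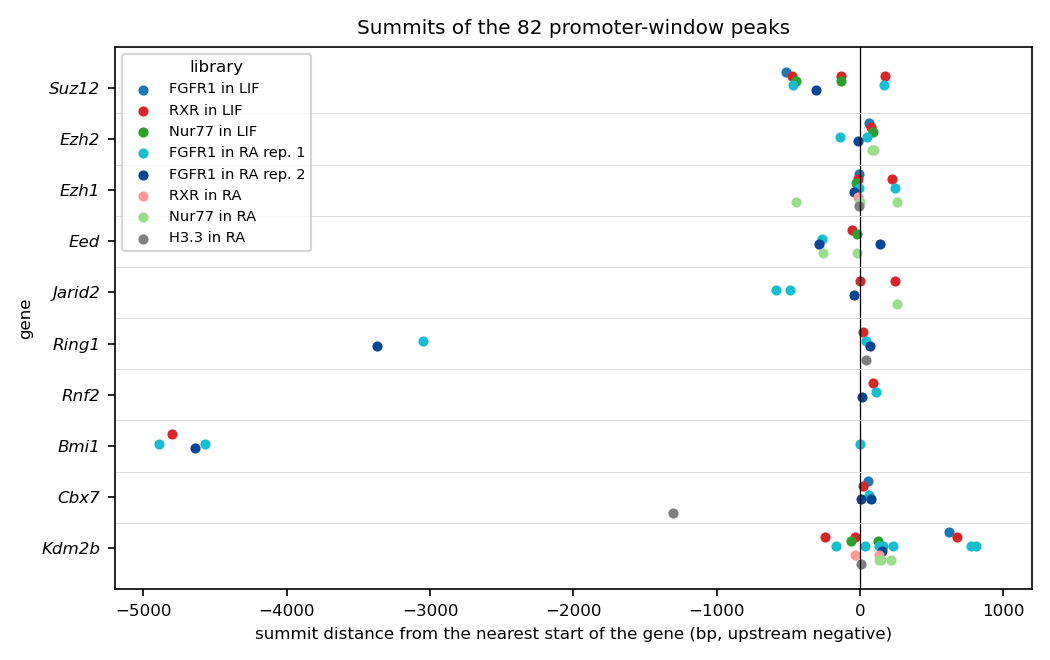
Distance in bp from each promoter-window summit to the nearest start of the member itself (x axis, upstream negative), by gene (rows) and library (colours), for 82 peaks. Points gather at 0 apart from the Bmi1 peaks 4572 to 4895 bp upstream, the Ring1 peaks at 3048 and 3369 bp and the H3.3 peak of Cbx7 at 1307 bp.

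The next question was how the member counts stood against all protein-coding genes. In RA, FGFR1 had a promoter-window peak at 10 of 10 members, against 56.0% of all genes in replicate 1 and 51.5% in replicate 2, and 42.6% of all genes had one in both libraries. In LIF it had one at 5 of 10 members, Suz12, Ezh2, Ezh1, Cbx7 and Kdm2b, against 19.7% of all genes. These 5 also had a peak in both RA libraries, as 16.6% of all genes did, and the other 5, Eed, Jarid2, Ring1, Rnf2 and Bmi1, had one in both RA libraries and none in LIF, as 26.0% did. The mean count in RA was 10 ± 0 (SD, n = 2), so the difference from LIF was 5 members. Since 10 is the most that the members allow, this SD does not measure the spread between the libraries.

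The depth of FGFR1 in LIF was compared with the RA libraries in 2 ways. The ratio of LIF to replicate 1 was 1.03 for the background per fragment length, on which the fragments at a summit are counted, and 0.651 for the background per kb. Scaled by 1.03, the strongest peaks of the 5 genes without an FGFR1 peak in LIF corresponded to 8.24 fragments for Rnf2, 13.4 for Bmi1, 14.4 for Jarid2, 17.5 for Eed and 21.6 for Ring1. At the scaled local background of each gene a peak needed 6 fragments at Rnf2 and Eed, 7 at Bmi1 and Jarid2 and 11 at Ring1, so all 5 lay above their limit. The lower bound for Rnf2, 3.56, did not. Scaled by 0.651 the values ran from 5.21 for Rnf2 to 13.7 for Ring1, and that of Rnf2 was below its limit. For replicate 2 the ratios were 0.298 and 0.400, and all 5 values lay above their limits by both. By 0.298, Rnf2 corresponded to 8.94 fragments (lower bound 6.03) against a limit of 6. Bmi1 corresponded to 8.34 against a limit of 7, and its lower bound, 5.54, lay below it. With each list reduced to its 10634 strongest peaks, the counts were 5 members in LIF, 6 in replicate 1 and 10 in replicate 2, against 18.0%, 20.7% and 44.7% of all genes. The difference between the states was then 3 members by the mean and 1 member by replicate 1 alone.

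For RXR, 10 of 10 members had a promoter-window peak in LIF against 46.4% of all genes. In RA the members were Ezh1 and Kdm2b, 2 of 10 against 26.2%. The other 8 had a peak in LIF and none in RA, as 24.5% of all genes did. By background per kb, RXR in LIF was the deepest library and RXR in RA was next to the shallowest, and depth moved with this difference. Scaled by the ratio of the backgrounds per fragment length, 0.382, the strongest LIF peaks of the 8 genes corresponded to 3.82 fragments for Bmi1 up to 8.03 for Ring1. At the scaled local backgrounds a peak needed 4 to 8 fragments, 3 of the 8 values were below their own limit, and no interval lay wholly above it. By the ratio per kb, 0.264, the values ran from 2.64 to 5.54, and all 8 were below. With the 10634 strongest peaks of each list the counts were 4 members in LIF, Suz12, Ezh2, Ezh1 and Ring1, against 2 in RA, with 17.1% and 15.2% of all genes. The loss of RXR peaks at most members was therefore not well measurable at this depth.

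**Figure D3:**
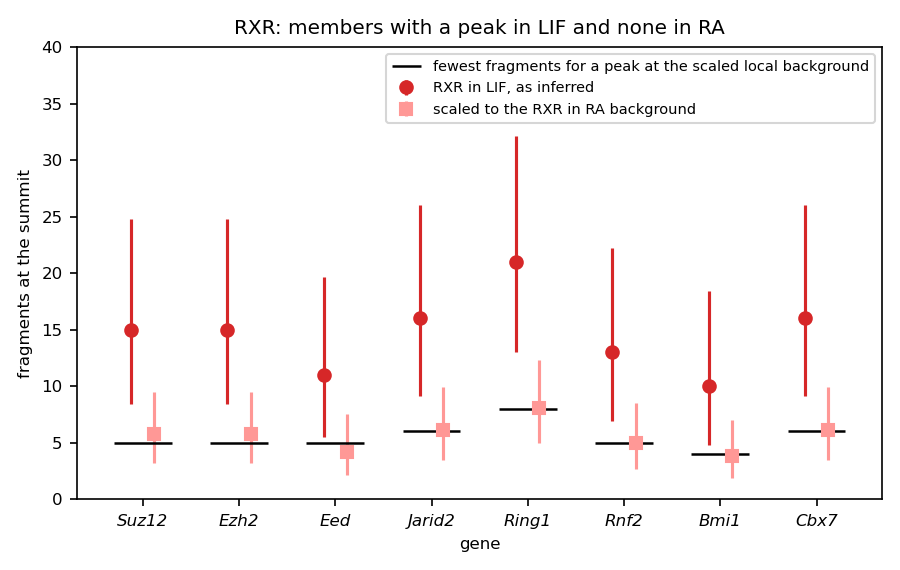
Fragments at the summit (y axis) of the strongest RXR peak in LIF for the 8 members with none in RA (x axis), as inferred (circles) and scaled to the background of RXR in RA (squares), with 95% exact Poisson intervals that cover counting error only. The scaled values, 3.82 to 8.03, lie close to the black bars, the fewest fragments that could make a peak at the scaled local background of each gene, and no interval lies wholly above its bar.

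Nur77 had a promoter-window peak at 5 of 10 members in LIF, against 29.8% of all genes, and at 5 of 10 in RA, against 31.0%. Ezh2, Ezh1, Eed and Kdm2b had one in both states, Suz12 in LIF and Jarid2 in RA. The Suz12 peak in LIF, 9 fragments, scaled to 7.30 at the depth of RA, and the Jarid2 peak in RA, 10 fragments, scaled to 12.3 at that of LIF, by the backgrounds per fragment length, where the scaled local backgrounds needed 6 and 7 fragments. With the 10634 strongest peaks the members were Ezh2 and Ezh1 in LIF, and Ezh1 and Kdm2b in RA, 2 of 10 in each state against 13.1% and 11.4% of all genes. H3.3 had a peak at Ezh1, Ring1, Cbx7 and Kdm2b, 4 of 10 members against 18.0% of all genes. These 4 peaks rested on 6 to 11 fragments, and 4 fragments were the fewest that could make a peak in this shallowest library.

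**Figure D4:**
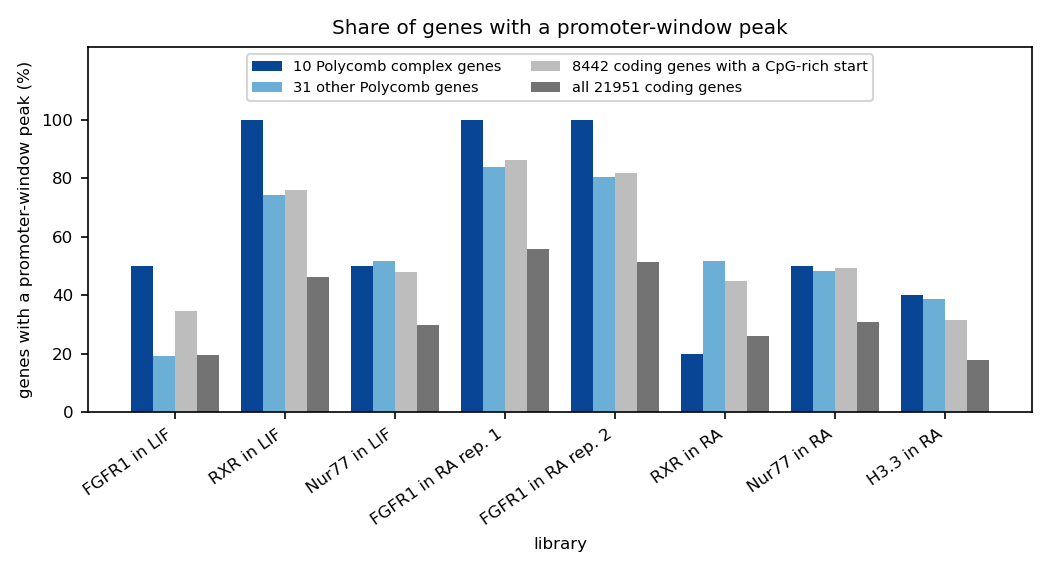
Percent of genes with a promoter-window peak (y axis) in each library (x axis) for the 10 members, 31 other Polycomb genes, 8442 protein-coding genes with a CpG-rich start and all 21951 protein-coding genes. Member bars stand at 100% in RXR in LIF and in both FGFR1 libraries in RA, and at 20%, below the bar of all genes, in RXR in RA.

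The members shared a sequence feature that the selection by name did not use. All 10 had a CpG ratio, the observed over expected number of CpG, of at least 0.6 within 1 kb of a start, against 38.5% of protein-coding genes, and their highest ratios ran from 0.635 for Cbx7 to 0.988 for Bmi1. A single start above the limit was enough, and the starts above it were 1 of 5 at Suz12 and 14 of 16 at Jarid2. Members had a median of 9 starts against 3 for all genes, and the part of this was not tested. Among the 8442 genes with such a start, the share with a promoter-window peak was 34.5% for FGFR1 in LIF, 86.2% and 82.0% for FGFR1 in RA, 75.9% and 45.0% for RXR in LIF and RA, 48.0% and 49.3% for Nur77, and 31.5% for H3.3. Member counts of 5 for Nur77 in each state thus lay near those of CpG-rich genes, while RXR in RA, at 2 of 10, lay below. The 10 of 10 for FGFR1 in RA and RXR in LIF stood beside 86.2%, 82.0% and 75.9% of CpG-rich genes. Those shares were nearer to the members than those of all genes, 56.0%, 51.5% and 46.4%. With 10 genes, none of these differences was tested.

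Within each library the median fold of the members was near that of all coding promoter-window peaks. Their median promoter-window fold was 6.80 against 6.97 for all peaks in coding promoter windows in FGFR1 in LIF, 8.01 against 7.33 in RA replicate 1 and 9.43 against 8.73 in replicate 2. For RXR it was 6.48 against 6.34 in LIF and 6.61 against 6.57 in RA, and for Nur77 5.83 against 6.40 in LIF and 7.36 against 6.71 in RA. The H3.3 median was 6.42 against 6.63. By −log10 p, the median member peak stood at 36.0% from the top of the list in FGFR1 replicate 1 and at 78.5% in Nur77 in LIF. It stood at 67.3% in H3.3, 68.7% in FGFR1 in LIF and 69.2% in RXR in RA. The other libraries lay between 36.0% and 67.3%. These ranks are taken over whole lists, in and outside promoter windows. Against coding promoter-window peaks, the median −log10 p of the members was 10.1 against 10.7 in FGFR1 in LIF. It was 9.66 against 9.90 in RXR in RA, 9.68 against 9.93 in H3.3 and 8.16 against 9.75 in Nur77 in LIF. The members had the higher median in RXR in LIF, both FGFR1 libraries in RA and Nur77 in RA. By fold, peaks at these promoters were thus of ordinary height for each library, and by −log10 p Nur77 in LIF was the lowest against coding peaks.

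Replicate libraries of FGFR1 in RA coincided at 9 of the 10 members. Of the promoter-window peaks, 11 of 23 in replicate 1 and 9 of 13 in replicate 2 overlapped a peak of the other by at least 1 bp, and 8 of the 11 pairs had summits within 100 bp. Of all protein-coding genes, 42.6% had a promoter-window peak in both libraries, coinciding or not. The share with coinciding peaks was not computed, so these counts do not set the members apart. The median peak was 311 bp wide in replicate 2 against 89 bp in replicate 1, and the part of width was not tested. The fold was higher in replicate 2 at Suz12, Ezh2, Rnf2, Bmi1 and Cbx7 and lower at Ezh1, Eed, Ring1 and Kdm2b. Differences in deposited fold between the replicates thus went both ways, and at Ezh1 they spanned 9.89 to 17.5. The genome-wide background was 0.300 fragments in replicate 1 and 1.04 in replicate 2, so the pseudocount lowers the folds of replicate 1 more. The direction at Suz12, Ezh2, Bmi1 and Cbx7 depends on it.

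**Figure D5:**
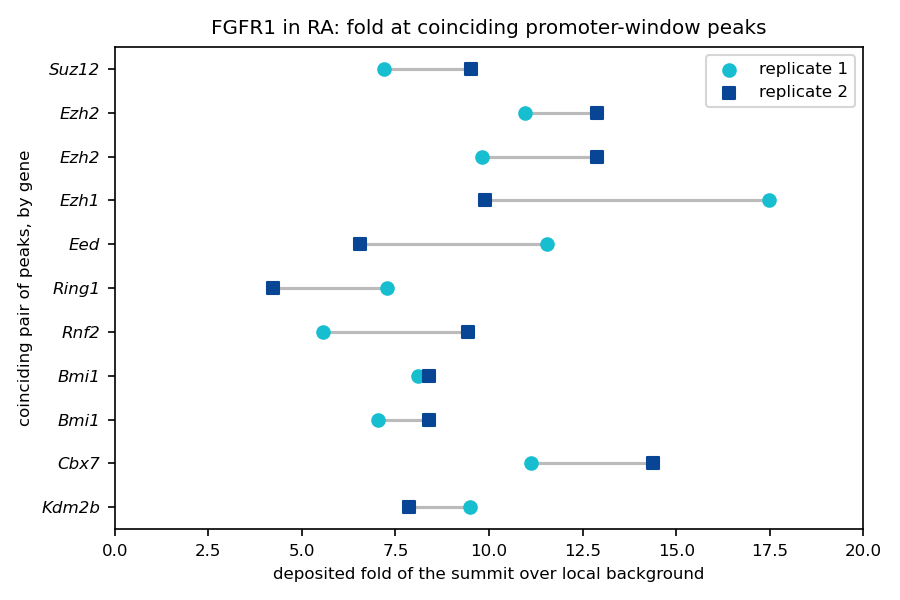
Deposited fold (x axis) at each of the 11 pairs of coinciding FGFR1 promoter-window peaks in RA (rows, by gene), with circles for replicate 1 and squares for replicate 2. Replicate 2 lies to the right at Suz12, Ezh2, Rnf2, Bmi1 and Cbx7 and to the left at Ezh1, Eed, Ring1 and Kdm2b.

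Peaks of different factors often overlapped at the members. The paper reports frequent overlap of these factors over the whole genome. Shares over all promoter-window peaks were not computed here, so the values below do not set the members apart. In RA, 8 of 11 Nur77 peaks (72.7%) overlapped FGFR1 replicate 1, and these covered 8 of its 23 peaks (34.8%). All 3 RXR peaks in RA overlapped a peak of FGFR1 replicate 1, which is 13.0% of its peaks. In LIF, 3 of 5 FGFR1 peaks (60%) overlapped RXR and 3 overlapped Nur77, and for RXR this was 3 of 16 peaks (18.8%). RXR in LIF overlapped FGFR1 replicate 2 in RA more often, at 11 of 16 peaks (68.8%), which covered 10 of 13 peaks of that library (76.9%). The wide peaks of replicate 2 can meet more peaks than those of another library, and the part of width was not tested.

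7 short words were searched on both strands in the 100 bp around each promoter-window summit of the members, and gene-body summits were not searched. AGGTCA, the core word bound by RXR partners and Nur77, was found at 4 peaks, at Suz12 and Bmi1. CACGTG, bound by basic helix-loop-helix factors and its own reverse complement, was found at 3, at Suz12, Bmi1 and Cbx7. GCATGCGC, the NRF1 word, was found at 4, at Eed and Cbx7. Neither TGACGTCA (the CREB word), CCGGAAGT (ETS), AAGATGGC (YY1) nor AAAGGTCA (the Nur77 word, which contains AGGTCA) was found at any of these summits. Of all promoter-window peaks in a library, 3.07% to 4.43% held AGGTCA, 3.38% to 6.88% held CACGTG, 1.69% to 4.16% held GCATGCGC and 0.0530% to 0.197% held AAAGGTCA. TGACGTCA was held by 0.907% to 1.93%, CCGGAAGT by 0.915% to 2.86% and AAGATGGC by 0.848% to 3.04%. A match describes the letters only.

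In the gene body outside the window, 6 of 10 members had a peak in at least 1 library, against 43.9% of all genes, with 28 peaks in 14 sites. Of these sites, 9 were seen in 1 library, and 6 of the 28 peaks lay on an alternating tract of at least 20 bp, against 3 of the 82 promoter-window peaks. The highest −log10 p was 35.4 for Jarid2, in RXR in LIF, and 33.8 for Rnf2, in FGFR1 replicate 1. It was 16.9 for Cbx7 in FGFR1 replicate 2, at a site shared by 4 libraries, 9.37 for Kdm2b in FGFR1 replicate 1, 8.997 for Suz12 and 6.41 for Ezh2, both in Nur77 in LIF. The median member spanned 42.0 kb against 17.4 kb for all genes, and the part of length in this count was not tested. Ezh1, Eed, Ring1 and Bmi1 had none. H3.3 had no body peak at any member.

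A list of 31 other Polycomb genes, made of PRC2 partners, canonical and variant PRC1 subunits, and the H2A deubiquitylase with recruiters, was read in the same way. FGFR1 had a promoter-window peak at 6 of 31 (19.4%) in LIF, against 19.7% of all genes, and at 26 and 25 of 31 in RA replicates 1 and 2, against 56.0% and 51.5%. The RXR count was 23 of 31 in LIF against 46.4% of all genes, and 16 of 31 in RA against 26.2%. For Nur77 the counts were 16 in LIF and 15 in RA, against 29.8% and 31.0%, and H3.3 had 12 against 18.0%. The RXR count in RA was thus 51.6% of the list, where the 10 members gave 20%. By group, FGFR1 replicate 1 had a peak at 6 of 6 PRC2 partners, 7 of 9 canonical PRC1 genes, 8 of 10 variant PRC1 genes and 5 of 6 of the last group, while FGFR1 in LIF had 1, 1, 2 and 2.

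Aebp2, a PRC2 partner that binds DNA, was the strongest of the 31 in 5 of 8 libraries, with a −log10 p of 36.6 in FGFR1 in LIF, 39.4 and 57.2 in RXR in LIF and RA, and 23.9 and 33.4 in Nur77. Bap1, the deubiquitylase itself, led in FGFR1 replicate 1 at 37.8. Mtf2, which brings PRC2 to CpG islands, led in replicate 2 at 63.6, and Asxl1, the cofactor of Bap1, led in H3.3 at 17.7. Each of these values was above that of the strongest member in the same library, except in FGFR1 replicate 2, where Jarid2 stood at 79.2. Aebp2, Phc2, Mga and Asxl2 had a promoter-window peak in all 8 libraries, as Ezh1 and Kdm2b did, a pattern found at 814 protein-coding genes (3.71%). The Rnf2 and Bmi1 pattern of RXR in LIF with both FGFR1 libraries in RA was that of Cbx8 and of 728 genes in all. Jarid2 had the pattern of Rbbp4, with 354 genes, and Ezh2 that of Yy1, with 253. Sfmbt2 had no promoter-window peak in any library, like 29.8% of protein-coding genes, and 19 peaks in its gene body.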

How the data were processed

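ChIP-seq peak lists of 8 libraries were used. The authors aligned reads to mm10 with Bowtie 1.0, discarded reads mapping to several places, and ran MACS2 on every library by itself, with 1e-05 as the p limit and without naming a control library. The deposited fold is a ratio of the summit pileup to the local background with a pseudocount. The −log10 p and −log10 q columns, as deposited, refer to the summit. The score as deposited is the −log10 p times 10, cut to a whole number, and a further deposited column gives the summit offset in bp.

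Positions are counted from 1. Lists were read against GENCODE M21, and a peak counted in a window that it overlapped by at least 1 bp. Fragments at a summit were solved from fold and −log10 p with the Poisson tail of MACS2, within 0.002, for 100% of peaks, so depth is inferred. Exact Poisson intervals (95%) cover counting error only. The solver was tested on simulated data. Sequence came from the RefSeq GRCm38.p6 assembly. CpG ratios were counted within 1 kb of a start. Other copies of the Jarid2 intron site were sought with BLAST 2.17.0 (E value limit 1e-10).

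Groups came from sample titles. With 1 library per group, other than 2 for FGFR1 in RA, no test was run and no p-value was computed. All 10 members were named with their promoter-window peaks, body peaks by counts and each member's highest −log10 p, and of the 31 other genes those with peaks in all libraries or in none, those leading a library and those sharing a member's pattern. Members and lists were chosen with earlier results of these data known. Scaling of fragments to another library's depth and the search for copies were added after seeing the data. Python 3.11.15, pandas 2.3.3, numpy 2.4.6, SciPy 1.17.1, pysam 0.24.0 and matplotlib 3.10.9 were used. Alternatives were the limits on −log10 p, −log10 q and fold, equal list lengths, narrower promoters, coding transcripts only, summits in the window, and the removal of tracts or of peaks nearer to another gene.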

Additional observations from a re-analysis of the deposited data

Results flagged for a closer look

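The counts of members with a promoter-window peak moved in opposite directions for FGFR1 and RXR, as did the shares of all protein-coding genes. Those shares were 19.7% in LIF and 56.0% and 51.5% in RA for FGFR1, and 46.4% in LIF and 26.2% in RA for RXR. From LIF to RA the count was 5 members higher for FGFR1, in each of its 2 RA libraries, and for RXR the difference of RA minus LIF was -8 members. The difference between the factors was not tested, since RXR had 1 library in each state. Depth per kb moved the same way for RXR, from 7.09 to 1.87 fragments, and for FGFR1 from 2.71 to 4.16 and 6.78. By the background per fragment length, FGFR1 replicate 1 was not deeper than LIF, at 0.300 against 0.309, while replicate 2 was, at 1.04. The part of depth was not tested. With equal list lengths the differences were 3 and -2 members.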

How the results depend on the processing

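Of 130 recomputed values, 18 moved and 0 reversed. Counts were taken as moved beyond 1.5 times, and the RXR and Nur77 differences where a count left its exact 95% interval. The FGFR1 difference was taken as moved at any change, since its libraries in RA had an SD of 0, at the ceiling of 10 members. A −log10 p of at least 10 left 3 members for FGFR1 and 2 for Nur77 in LIF, 1 for RXR and 2 for H3.3 in RA, 3 with a body peak, an FGFR1 difference of 6.5 and a Nur77 difference of 2 in place of 0, inside those intervals. Equal list lengths gave 4 members for RXR and 2 for Nur77 in LIF, 6 for FGFR1 replicate 1, 6 for FGFR1 in both RA libraries and 2 for Nur77 in RA, 3 with a body peak, and differences of 3 for FGFR1 and -2 for RXR. By construction both use fewer peaks. Shares of all protein-coding genes were computed for equal list lengths and not for the other alternatives. The FGFR1 difference was 4.5 for proximal promoters, without tracts and without peaks nearer to another gene, and 6 with coding transcripts only, since the Kdm2b peak in LIF lies at a start of a transcript not classed as protein-coding. Leaving out either FGFR1 library in RA gave 10 members and a difference of 5. The −log10 q, fold and summit alternatives kept every count within 1.5 times. No paired analysis was possible because the factors and states share fewer than 2 replicate numbers. Single libraries, inferred depth and the absence of a control library limit all absences.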
